A study of Homo sapiens with 6 samples.

Results

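The members described here are the peaks of human chromosome 17 in a map of RNA bound to the splicing protein SF3B4, chosen by the chromosome given for each peak and by no measured value. They number 5690 of the 181131 deposited peaks. RNA was recovered from HEK293T cells, a line derived from human embryonic kidney, by immunoprecipitation with an antibody to SF3B4, and was sequenced (RIP-seq). Each of the 2 RIP experiments, named RIP-1 and RIP-2, has an Anti-SF3B4, an IgG and an Input library, so that 6 libraries form 3 groups of 2. Ribosomal RNA was removed before sequencing. All libraries come from this 1 cell line, for which the labels give no treatment or gene change, and they do not say whether the experiments used separate cultures. Each experiment is represented by 1 list of peaks named mRNA and 1 named NotExon, the second called the non-exon list here, and the IgG and Input libraries are seen only through these calls. All positions are on hg19.

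SF3B4 is a subunit of SF3b, a complex of the U2 small nuclear ribonucleoprotein, which binds the branch site of an intron while the spliceosome assembles. RNA that SF3B4 contacts can therefore be unspliced pre-mRNA, the U2 particle itself or RNA held with it. Chromosome 17 is one of the most gene-dense human chromosomes, and its ends are taken here as gene-dense, with no gene density computed along it. It also carries clustered genes of abundant nuclear RNAs, among them U3 small nucleolar RNA, which guides ribosomal RNA processing, and U2 small nuclear RNA. The RefSeq gene table used for counts (GRCh38.p14) lists 1169 protein-coding genes, 5 U3 genes (SNORD3A, SNORD3B-1, SNORD3B-2, SNORD3C and SNORD3D) and the U2 gene RNU2-1 on this chromosome. Its build is not that of the peaks, so no peak is assigned to a gene below.

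In the mRNA lists, chromosome 17 held 653 of 10960 RIP-1 peaks and 399 of 10280 RIP-2 peaks. Of the non-exon peaks it held 973 of 25797 (RIP-1) and 3665 of 134094 (RIP-2). The peak numbers that the caller assigned on this chromosome run without a gap from 13015 to 14640 for RIP-1 and from 53120 to 57183 for RIP-2, with none in both lists, so each list pair holds the complete call there. On chromosome 17 the RIP-1 call consisted to 40.2% of mRNA-list peaks (95% Wilson interval 37.8 to 42.6), against 29.3% on the other chromosomes. In RIP-2 these made up 9.82% on chromosome 17 (8.94 to 10.8), against 7.04% on the other chromosomes. Depth is unknown for every library, since the lists give no read counts, and intervals cover counting error only. With 1 list per kind and experiment no replicate error exists, so values are compared with no p-value.

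The share of each list that fell on chromosome 17 was highest in the RIP-1 mRNA list and lowest in the RIP-2 non-exon list, and the intervals of only the other two overlap. It was 5.96% of the RIP-1 mRNA list (5.53 to 6.42), 3.88% of the RIP-2 mRNA list (3.53 to 4.27), 3.77% of the RIP-1 non-exon list (3.55 to 4.01) and 2.73% of the RIP-2 non-exon list (2.65 to 2.82). Chromosome 17 has 5.83% of the protein-coding genes and 2.62% of the summed chromosome length. The RIP-1 mRNA list thus lay at the gene share within its interval, and the RIP-2 non-exon list just above the length share. The RIP-1 mRNA list had 55.9 peaks per 100 protein-coding genes on chromosome 17 and 54.6 on the other chromosomes. The RIP-2 mRNA list had 34.1 per 100 genes on chromosome 17 and 52.4 on the others.

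**Figure D1:**
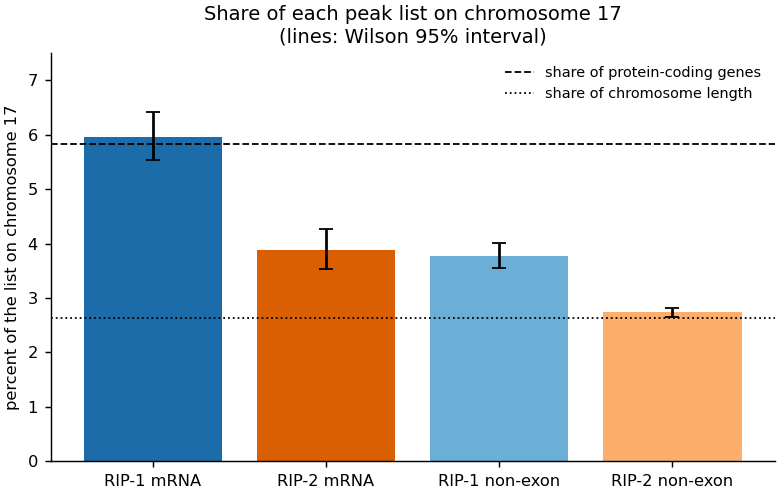
Percent of each deposited peak list that lies on chromosome 17, with Wilson 95% intervals, beside the chromosome's share of protein-coding genes (dashed, 5.83%) and of chromosome length (dotted, 2.62%). The RIP-1 mRNA list reaches the gene share and the RIP-2 non-exon list lies nearest to the length share.

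Per length, chromosome 17 had 8.04 RIP-1 mRNA-list peaks per Mb, against 3.42 on the other chromosomes, a ratio of 2.35 (95% interval 2.17 to 2.54). For RIP-2 the ratio was 1.5 (1.35 to 1.66), with 4.91 per Mb on chromosome 17 and 3.28 elsewhere. The non-exon ratio was 1.45 (1.36 to 1.55) for RIP-1 and 1.04 (1.01 to 1.08) for RIP-2. By density, chromosome 17 ranked 2 of 24 chromosomes in both mRNA lists, 1 in the RIP-1 non-exon list and 7 in the RIP-2 non-exon list. Per 100 protein-coding genes it had fewer non-exon peaks than the others, 83.2 against 131.6 in RIP-1 and 313.5 against 691.3 in RIP-2. Its rank per gene was 13 in the RIP-1 mRNA list and 22 in each other list.

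By their medians the peaks of chromosome 17 were close in strength to those elsewhere. The score is the authors' own value for a peak, starts at 50 in these lists, stands at 3100 for the strongest peaks of this chromosome, and appears to be 10 times the negative log10 of a p-value. In the RIP-1 mRNA list its median was 85.7 on chromosome 17 (quartiles 62.0 and 142) and 79.5 on the other chromosomes (61.3 and 121). In the RIP-2 mRNA list it was 80.1 on chromosome 17 (63.2 and 115) and 79.6 elsewhere (62.2 and 114). Median widths were 221 bp on chromosome 17 and 216 bp elsewhere in the RIP-1 mRNA list, and 163 bp and 160 bp in its RIP-2 counterpart. The fold enrichment, given for non-exon peaks only, had a median of 6.11 on chromosome 17 and 6.57 elsewhere in RIP-1, while the RIP-2 medians were 7.77 and 8.19. RIP-1 peaks with a score of 200 or more were more frequent on chromosome 17. They made up 15.8% of its mRNA list (13.2 to 18.8), against 11.4% elsewhere (10.8 to 12.03), and 4.52% of its non-exon list (3.39 to 6.02), against 2.22% elsewhere (2.05 to 2.42). RIP-1 non-exon peaks were also wider, with a median of 830 bp on chromosome 17 and 706 bp on the others. In RIP-2 the corresponding shares were 6.27% against 5.72% in the mRNA list and 5.18% against 5.04% in the non-exon list, with overlapping intervals.

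Peaks were unevenly spread over the 41 windows of 2 Mb. The RIP-1 mRNA list had a median of 17 peaks per window and a range of 0 to 41, and its 10 fullest windows held 44.3% of the peaks. The RIP-2 mRNA list had a median of 10 and a range of 0 to 23. The non-exon medians were 25 (range 1 to 42) for RIP-1 and 91 (12 to 149) for RIP-2. No window was without a peak in all 4 lists.

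The fullest windows were not the same. RIP-1 mRNA-list peaks were densest at 78 to 80 Mb (41 peaks), 40 to 42 Mb (38) and 34 to 36 Mb (30). RIP-2 mRNA-list peaks were densest at 8 to 10 Mb and 28 to 30 Mb (23 each) and at 34 to 36 Mb (21), so the last of these windows was among the fullest 3 in both experiments. RIP-1 non-exon peaks were densest at 18 to 20 Mb (42), 0 to 2 Mb and 28 to 30 Mb (41 each). RIP-2 non-exon peaks were densest at 70 to 72 Mb (149), 44 to 46 Mb (142) and 64 to 66 Mb (136).

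The emptiest stretch was common to all lists. It lay between 22 and 26 Mb, the part of the chromosome around the centromere. How much of this stretch can take reads was not tested without a genome of this build. The agreement of the lists in this stretch is therefore no result about binding. The longest gap between neighbouring peaks was there in each list, from 21144020 to 25783669 in the RIP-1 mRNA list, from 21208440 to 25931705 in the RIP-2 mRNA list, from 22121880 to 25539812 in the RIP-1 non-exon list and from 22250924 to 25263865 in the RIP-2 non-exon list. Both mRNA lists were also empty at 50 to 52 Mb, where 5 RIP-1 and 47 RIP-2 non-exon peaks stood. At 68 to 70 Mb the RIP-1 mRNA list held 0 peaks and the RIP-2 mRNA list 1, beside 4 and 71 non-exon peaks.

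**Figure D2:**
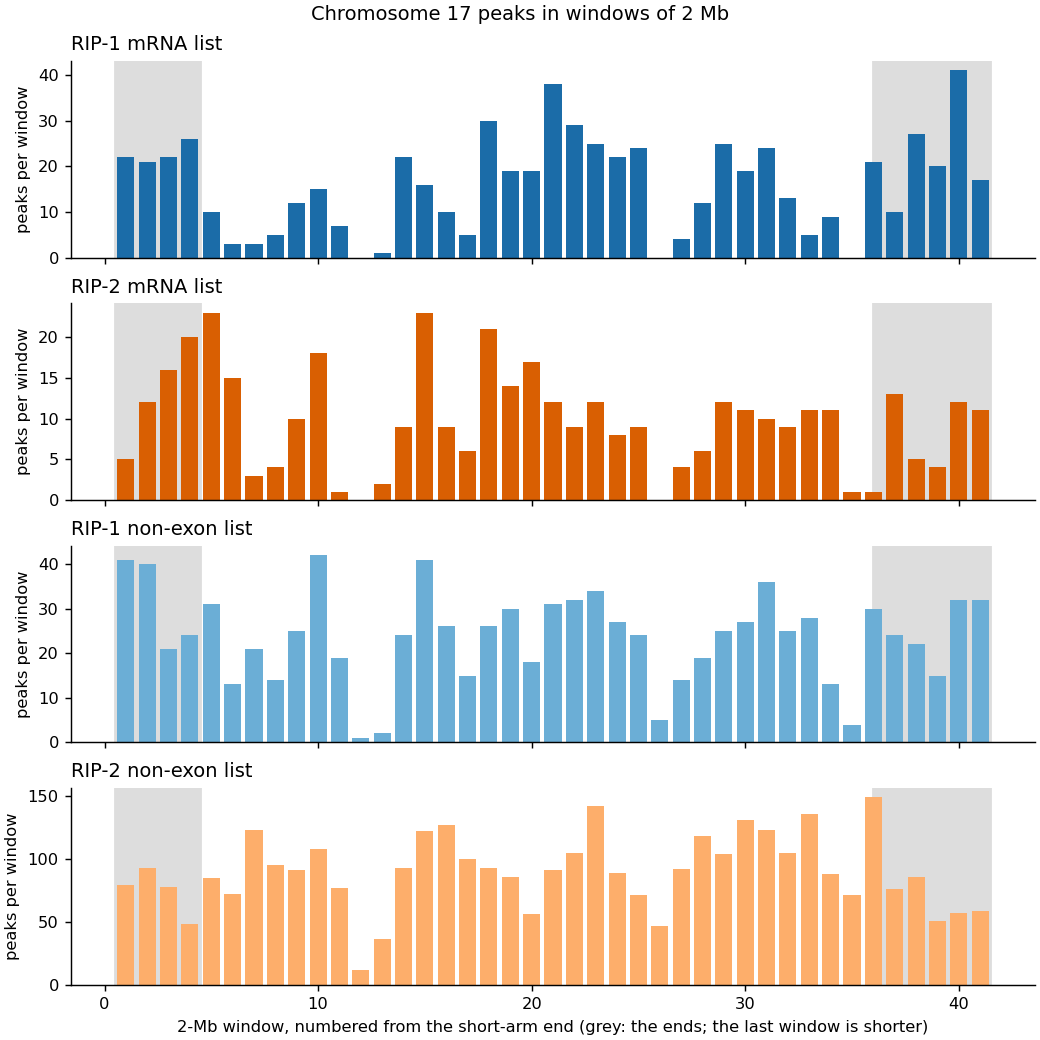
Number of peaks per 2-Mb window (the last is shorter) along chromosome 17 in the 4 lists, with a separate vertical scale for each list and the ends in grey. The RIP-1 mRNA list peaks in window 40 (41 peaks), the RIP-2 mRNA list in windows 5 and 15 (23 each), and all lists dip in windows 12 and 13.

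The experiments diverged in opposite directions in some stretches, which were picked from the window counts. From 8 to 12 Mb the mRNA list had 13 RIP-1 peaks and 38 RIP-2 peaks, although it had fewer in RIP-2 over the whole chromosome (653 in RIP-1 and 399 in RIP-2). From 40 to 50 Mb it had 138 RIP-1 and 50 RIP-2 peaks, and from 70 to 76 Mb 58 and 19. Inside the last stretch, the window at 72 to 74 Mb went the other way, with 10 RIP-1 and 13 RIP-2 peaks. RIP-1 mRNA-list peaks outnumbered those of RIP-2 in 27 windows, RIP-2 led in 10, and 4 were equal. For non-exon peaks the RIP-2 list was 3.77 times as long as that of RIP-1 on the chromosome, and the ratio per window ran from 1.78 to 18 around a median of 3.88.

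Across the 41 windows, the counts of the RIP-1 and RIP-2 mRNA lists were related with a Spearman rho of 0.43. For the non-exon lists rho was 0.48. The strongest relation was between the 2 lists of RIP-1, with a rho of 0.60. The 2 lists of RIP-2 had a rho of 0.09. The RIP-1 non-exon list followed the RIP-2 mRNA list (rho 0.50) about as closely as the RIP-2 non-exon list. These values are descriptions with no p, since windows share libraries, gene density and their neighbours.

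The ends of the chromosome, 0 to 8 Mb on the short arm and 71 Mb to the last base on the long arm, were set against the 63 Mb between them. The ends were denser in RIP-1 and sparser in the RIP-2 non-exon list. RIP-1 mRNA-list peaks had 12.4 per Mb at the ends (exact Poisson 95% interval 10.9 to 14.2) and 6.78 in the middle (6.15 to 7.45), a ratio of 1.83 (1.55 to 2.16). RIP-1 non-exon peaks had 14.6 per Mb at the ends (12.9 to 16.5) and 11.2 in the middle (10.4 to 12.1), a ratio of 1.30 (1.13 to 1.502). RIP-2 mRNA-list peaks had 5.44 per Mb at the ends (4.42 to 6.62) and 4.76 in the middle (4.24 to 5.33), and the interval of their ratio, 1.14 (0.901 to 1.44), includes 1. RIP-2 non-exon peaks had 38.02 per Mb at the ends (35.2 to 41.0) and 47.2 in the middle (45.5 to 48.9), a ratio of 0.806 (0.741 to 0.876). The middle includes the sparse stretch from 22 to 26 Mb. Without it the ratios were 1.72 (mRNA) and 1.225 (non-exon) for RIP-1, and 1.077 and 0.767 for RIP-2.

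Taken apart, the mRNA lists of the experiments differed more at the long-arm end than at the short-arm end. The RIP-1 mRNA list had 135 peaks there, or 13.2 per Mb, which is 1.95 times its density in the middle (1.60 to 2.38). The RIP-2 mRNA list had 46 peaks, or 4.51 per Mb, 0.947 times its density in the middle (0.679 to 1.30). At the short-arm end both mRNA lists were denser than in the middle, with ratios of 1.68 (1.32 to 2.11) for RIP-1 and 1.39 (1.02 to 1.87) for RIP-2. In the non-exon lists the ratios stood apart at both ends, 1.40 (1.15 to 1.70) for RIP-1 and 0.789 (0.698 to 0.890) for RIP-2 at the short-arm end, and 1.22 (1.01 to 1.47) and 0.819 (0.735 to 0.910) at the long-arm end. No test of the difference between the experiments was made, since each is 1 list.

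**Figure D3:**
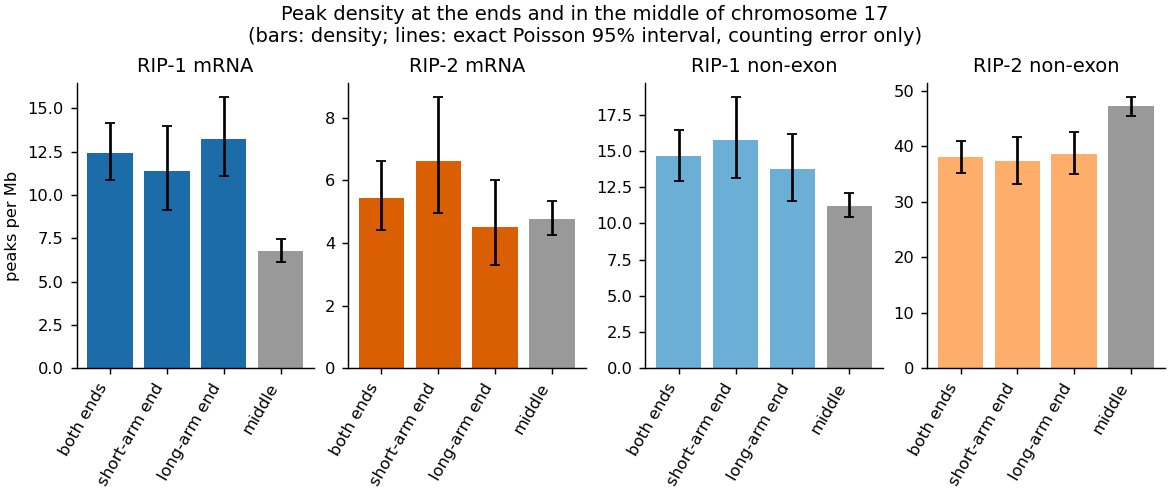
Peaks per Mb at both ends together, at each end and in the middle (grey) of chromosome 17, by list, with exact Poisson 95% intervals. The ends stand above the middle in both RIP-1 lists and below it in the RIP-2 non-exon list.

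The mRNA list took a larger part of the call at the pooled ends in both experiments. It made up 45.9% of the RIP-1 peaks at the ends (41.6 to 50.4) and 37.7% in the middle (34.9 to 40.5). In RIP-2 it made up 12.5% at the ends (10.4 to 15.0) and 9.17% in the middle (8.23 to 10.2). By end, the interval stood clear of that of the middle at the long-arm end in RIP-1 (49.1%, 43.2 to 55.0) and at the short-arm end in RIP-2 (15.1%, 11.7 to 19.2). It overlapped that of the middle at the RIP-1 short-arm end (41.9%, 35.6 to 48.6) and the RIP-2 long-arm end (10.4%, 7.93 to 13.7). Strong non-exon peaks of RIP-1 were also more frequent at the ends, where 21 of 266 scored 200 or more (7.89%, 5.22 to 11.8), against 23 of 707 in the middle (3.25%, 2.18 to 4.83). In RIP-2 the order was the other way, with 26 of 692 at the ends (3.76%, 2.58 to 5.45) and 164 of 2973 in the middle (5.52%, 4.75 to 6.40), and these intervals overlap.

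RIP-2 mRNA-list peaks lay more often on the minus strand of this chromosome, while for RIP-1 the interval includes an even split and overlaps that of the other chromosomes. In RIP-1 47.8% were on the plus strand on chromosome 17 (44.0 to 51.6), against 51.4% elsewhere (50.4 to 52.4). In RIP-2 43.1% were on the plus strand on chromosome 17 (38.3 to 48.0), against 52.2% elsewhere (51.2 to 53.2). By region, the plus-strand share in RIP-1 was 41.6% at the ends and 51.0% in the middle, and in RIP-2 47.5% at the ends and 41.7% in the middle. The RIP-2 ends went opposite ways, with 37.7% of 53 peaks at the short-arm end and 58.7% of 46 at the long-arm end. In RIP-1 the ends had 38.5% and 43.7%. No intervals are given for these shares by region.

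Few mRNA-list segments of chromosome 17 were found by both experiments. A peak is called shared when it overlaps a peak of the same kind of list of the other experiment by 1 bp or more, on the same strand in the mRNA lists. Of the 653 RIP-1 peaks 32 were shared (4.90%, 3.49 to 6.84), beside 6.41% over all chromosomes. Of the 399 RIP-2 peaks 32 were shared (8.02%, 5.74 to 11.1), beside 6.91% over all chromosomes. Both shares are near the background, which lies inside their intervals. When the RIP-1 list was moved as a whole along the chromosome, by 10 to 500 kb to either side in 100 fixed steps, 0 to 5 peaks overlapped, with a mean of 1.47, so the observed 32 is 21.8 times that mean.

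Most of the 32 pairs had identical edges. In 26 pairs the start was the same in both lists, in 26 the end, in 21 both, and 31 had at least 1 edge in common. Moved lists do not keep such edges, so agreement in binding and agreement in how segments were bounded cannot be told apart in the factor of 21.8. Across the 32 pairs the scores of the 2 experiments had a Spearman rho of 0.17.

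**Figure D4:**
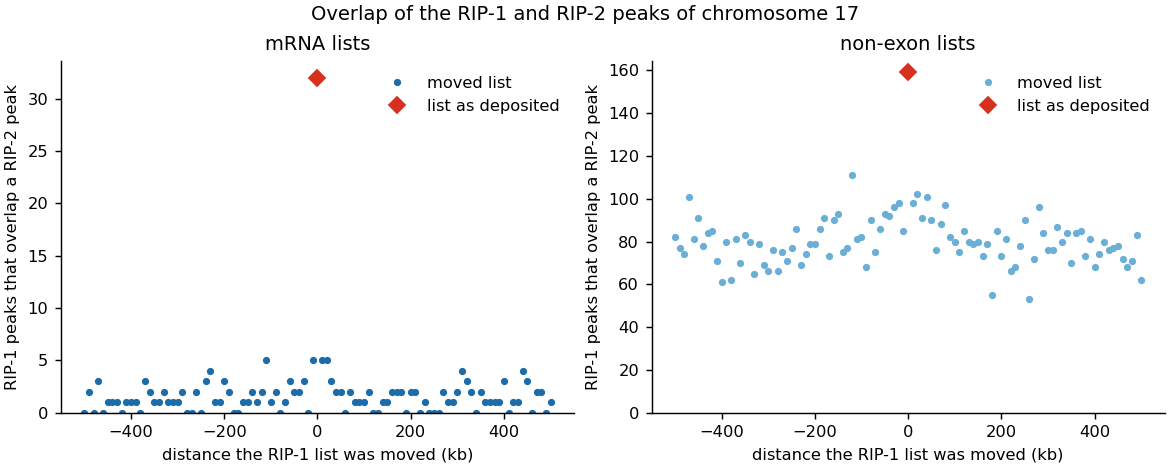
Number of RIP-1 peaks of chromosome 17 that overlap a RIP-2 peak, for the lists as deposited (diamond at 0 kb) and for the RIP-1 list moved by each of 100 distances (dots). The deposited mRNA lists share 32 peaks against at most 5 after a move, and the non-exon lists 159 against at most 111.

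On chromosome 17, shared segments were absent from the strong end of the RIP-1 list. Shares by score over all chromosomes are not given here, so this is not shown to be particular to chromosome 17. The highest score of a shared RIP-1 peak was 134, and 181 of the 653 RIP-1 peaks scored higher. Of the strongest 10% of the RIP-1 list 0 of 65 were shared, which allows a share of up to 4.62% (a count of 3, the limit used for every count of 0 here, where the Wilson upper bound is 5.58%), against 8 of 65 in the weakest 10% (12.3%, 6.37 to 22.5). The Wilson bound for the strongest 10% lies above the 4.90% shared in the whole RIP-1 list. The strongest 10% were also wider, and their median width was 749 bp against 194 bp. In RIP-2 the strongest 10% had 4 of 39 shared and the weakest 10% had 3 of 40.

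At the ends 6 of 226 RIP-1 mRNA-list peaks were shared (2.65%, 1.22 to 5.67), against 26 of 427 in the middle (6.09%, 4.19 to 8.77), with intervals that overlap. The short-arm end had 1 shared peak of 91, inside the range of 0 to 2 after moves. The long-arm end had 5 of 135, above its range of 0 to 2, and the 26 of the middle were above 0 to 4. Whether the regions differ was not tested. The 32 peaks were spread over 17 windows, with most, 4, at 60 to 62 Mb.

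The 10 shared segments with the highest lower score were of moderate strength, from 74.98 to 134 on the RIP-1 side and from 77.0 to 363 on the RIP-2 side. The first was a plus-strand segment of 57 bp from 28499559 to 28499616, identical in RIP-1 (score 128) and RIP-2 (score 120). A minus-strand segment from 49057106 to 49057278 came next, again with equal edges, and scored 94.6 (RIP-1) and 152 (RIP-2). These 2 segments are among those that match to the base in both lists.

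The third began at 80787309 on the minus strand in both lists. It ended at 80787476 in RIP-1 (score 86.5) and at 80787891 in RIP-2 (score 363), the highest score of any shared RIP-2 peak here. The fourth, on the minus strand, ended at 59761501 in both lists and began at 59760702 in RIP-1 (score 92.0) and at 59760921 in RIP-2 (score 82.4). Segments such as these have 1 edge in common and the other apart.

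Of the remaining 6, those at 30527974 and 60525061 on the plus strand and at 8415768 on the minus strand had both edges in common. Those at 67310454 and 80069861 on the minus strand shared the start, and the one at 73201544 on the plus strand shared only the end. Of all 10, 7 were in the middle of the chromosome and 3 at the long-arm end.

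The strongest unshared RIP-1 segments were chosen for having no RIP-2 mRNA-list partner. They met no RIP-2 non-exon peak either, which held for all 653 RIP-1 mRNA-list peaks of the chromosome. A plus-strand segment from 34171480 to 34172042 scored 3100, and the nearest RIP-2 peak of either list was 23616 bp away. The other 3 at 3100 lay close together, on the plus strand from 46135656 to 46138907 and on the minus strand from 46147413 to 46148941 and from 46153350 to 46153540. The fifth, on the minus strand from 27206352 to 27207617, scored 1885.

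The strongest unshared RIP-2 segments were weaker. On the minus strand, one from 38572991 to 38573147 scored 783, and the nearest RIP-1 peak was 102899 bp away. A plus-strand segment of 68 bp from 19151706 to 19151774 scored 452. The next 3, all on the minus strand, began at 3710075 (score 370), 35913216 (321) and 27887688 (282).

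Non-exon peaks of chromosome 17 overlapped between the experiments more often than mRNA-list peaks did in RIP-1, and also more often after moves. Of the 973 RIP-1 peaks 159 were shared (16.3%, 14.2 to 18.8), beside 18.1% over all chromosomes. Of the 3665 RIP-2 peaks 163 were shared (4.45%, 3.83 to 5.16), beside 3.63% over all chromosomes, which lies below that interval. After the moves, 53 to 111 RIP-1 peaks overlapped, with a mean of 79.8, so the observed 159 is 1.99 times that mean.

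Shared RIP-1 non-exon peaks stood above the range after moves at the long-arm end and in the middle, but not at the short-arm end. Whether the regions differ was not tested. At the short-arm end 9 of 126 RIP-1 non-exon peaks were shared, against a mean of 8.86 after moves (range 2 to 18), so no excess was detectable there. At the long-arm end 20 of 140 were shared against 9.44 (4 to 16), and in the middle 130 of 707 against 61.5 (36 to 85). The window with most shared peaks was 28 to 30 Mb, with 11 of its 41 RIP-1 peaks.

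Non-exon pairs differed from mRNA-list pairs in their edges. Of the 159 pairs 1 had the same start, 2 the same end and 0 both. In 28 pairs both edges lay within 100 bp of each other. Fold enrichment of the pairs had a Spearman rho of 0.19 and the score 0.01. Shared RIP-2 peaks were wider than unshared ones, with medians of 763 and 559 bp, and the part of width in the overlap was not tested.

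The shared non-exon peaks with the highest lower fold enrichment included one from 62747872 to 62748261 in RIP-1 (fold enrichment 12.4) that met a RIP-2 peak from 62746746 to 62747890 (10.6) by only 19 bp. The next ran from 19832189 to 19833143 in RIP-1 (9.94) and contained the RIP-2 peak from 19832511 to 19833096 (13.8). The other 3 began at 14884212, 11753085 and 31720413 in RIP-1, where their fold enrichments were 9.15 to 9.53, against 10.6 to 13.5 for the RIP-2 partners. All 5 lay in the middle of the chromosome. The false discovery rates that the caller gave them were high, 91.8 to 100% in RIP-1 and 90.6 to 100% in RIP-2.

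The kinds of list hardly met across experiments, as their names, mRNA and NotExon, would have it if the lists were divided by 1 exon annotation. On either strand, 0 of the 653 RIP-1 mRNA-list peaks met a peak of the RIP-2 non-exon list, which allows a share of up to 0.459%, while moved lists met 22 to 50 times (mean 35.7). Of the 399 RIP-2 mRNA-list peaks 1 overlapped a RIP-1 non-exon peak, against 2 to 15 after moves (mean 8.44). These counts may follow from how the lists were divided and say nothing of what was bound. The same counts over all chromosomes are not given here, so they are not shown to be particular to chromosome 17.

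Within an experiment, the distance between the 2 kinds of peak ran opposite ways by the side it was measured from. Of the non-exon peaks of chromosome 17, 22.1% in RIP-1 (215 of 973) had an mRNA-list peak within 10 kb, against 9.30% in RIP-2 (341 of 3665). Of the mRNA-list peaks, 35.7% in RIP-1 (233 of 653) had a non-exon peak within 10 kb, against 59.9% in RIP-2 (239 of 399). Each share was higher in the experiment with more peaks of the other kind to be near.

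Few non-exon peaks passed the false discovery rate (FDR) that the caller gives. In RIP-1 15 of 973 had an FDR of 5% or less (1.54%, 0.936 to 2.53), beside 0.678% over all chromosomes and 0.645% on the others (0.552 to 0.752). They were wide, 814 to 7150 bp, with fold enrichments of 6.82 to 32.4 and scores of 431 or more. Of the 15, 4 lay at the short-arm end, 3 at the long-arm end and 8 in the middle. Among them 0 were shared with the RIP-2 list, which allows a share of up to 20%. That limit lies above the 16.3% shared in the whole RIP-1 non-exon list. The count is therefore too small to show that these 15 were shared less often. In RIP-2 0 of 3665 passed, which allows a share of up to 0.0819%, and the lowest FDR was 68.3%.

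By fold enrichment the RIP-1 non-exon list was led by a peak of 345 bp from 37314013 to 37314357 with a fold enrichment of 43.1 (FDR 5.33%), followed by one from 80251381 to 80253007 with 32.4 (FDR 2.53%). A peak of 9495 bp from 34136400 to 34145894 had a fold enrichment of 20.5 but a score of 66.7 and an FDR of 100%. The next began at 20434765 (20.1) and 18314703 (18.9). In RIP-2 the leading 5 had fold enrichments of 25.5 to 28.4, all with an FDR of 100%, and lay in the middle at 59785533, 30168797, 55490884, 50829011 and 49437972. None of these 10 peaks overlapped a peak of the other experiment. Of all non-exon peaks of the chromosome, 16.3% in RIP-1 and 4.45% in RIP-2 were shared. These 10 are therefore too few to show less sharing.

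All peaks of chromosome 17 that reached a score of 3100 fell into 4 loci, chosen by that score, and each locus reached it in 1 experiment only. In the RIP-1 mRNA list 4 of 653 peaks here (0.613%) and 54 of 10307 elsewhere (0.524%) reached it. In the RIP-1 non-exon list these were 2 of 973 and 19 of 24824. In the RIP-2 mRNA list no peak here and 2 of 9881 elsewhere reached it. Such peaks were rare in every list, so reaching 3100 in 1 experiment only is no result by itself. The first locus is in RIP-2, from 18964564 to 19094219. It holds 5 non-exon peaks at 3100, of the 8 in the whole RIP-2 non-exon list. They run from 18964564 to 18965783, 18966965 to 18968124, 19015462 to 19016463, 19090668 to 19092045 and 19092842 to 19094219.

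Their starts are 2.40, 48.5, 75.2 and 2.17 kb apart, so that they form a pair, a single peak and another pair. The last 2 have the same width, 1378 bp. The next highest RIP-2 non-exon score on the chromosome was 825. Their fold enrichments were ordinary, from 8.52 to 10.2, and 693 RIP-2 peaks of the chromosome had a higher one. None of the 5 overlapped a RIP-1 peak, and each had an FDR of 100%. Of all RIP-2 non-exon peaks of the chromosome, 4.45% were shared and 40.9% had an FDR of 100%. These 5 are therefore too few to show less sharing.

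RIP-1 had other peaks in this locus or within 60 kb of it. Its 3 non-exon peaks from 18975277, 19083028 and 19101336, the last of which lies beyond the locus by its bounds above, were each exactly 524 bp wide, a width found 4 times in its list on this chromosome, and scored 155, 121 and 128. The first of these was overlapped by a RIP-2 peak from 18975224 to 18975852 with a score of 69.4. Reads from near-identical copies of a sequence cannot be told apart, so the place of the signal is uncertain if these peaks lie on such copies, which was not tested without a genome of this build.

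The second locus, from 34146191 to 34172042, was marked in both RIP-1 lists. A non-exon peak of 4230 bp from 34146191 to 34150420 scored 3100 with a fold enrichment of 17.6 and an FDR of 2.53%. It was followed on the plus strand by mRNA-list segments at 34165427 (score 1437), 34169370 (479), 34171480 (3100) and, just past the locus, 34173909 (66.0). The non-exon peak of 9495 bp named above ended 297 bp before it. RIP-2 had 1 mRNA-list segment and 3 non-exon peaks within 60 kb, with scores of 52.2 to 89.6.

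The third locus, from 46135656 to 46153540, held the 3 mRNA-list segments of RIP-1 at 3100 named above, 1 on the plus strand and the others on the minus strand. Within 60 kb outside it stood plus-strand segments from 46125685 (score 382), 46127968 (1807) and 46133747 (437), and a minus-strand segment from 46178116 (896). No RIP-1 non-exon peak stood in the locus or within 60 kb. The 2 RIP-2 mRNA-list segments and 5 RIP-2 non-exon peaks nearby scored from 51.7 to 269, and none overlapped a RIP-1 segment. Over the whole chromosome 8.02% of RIP-2 mRNA-list peaks were shared, and no RIP-2 non-exon peak met a RIP-1 mRNA-list segment.

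The fourth locus is the RIP-1 non-exon peak from 80251381 to 80253007 at the long-arm end. Another 7 RIP-1 non-exon peaks stood within 60 kb of it, with scores of 59.7 to 528, and no mRNA-list peak of either experiment did. RIP-2 had 2 non-exon peaks there, with scores of 156 and 84.4.

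**Figure D5:**
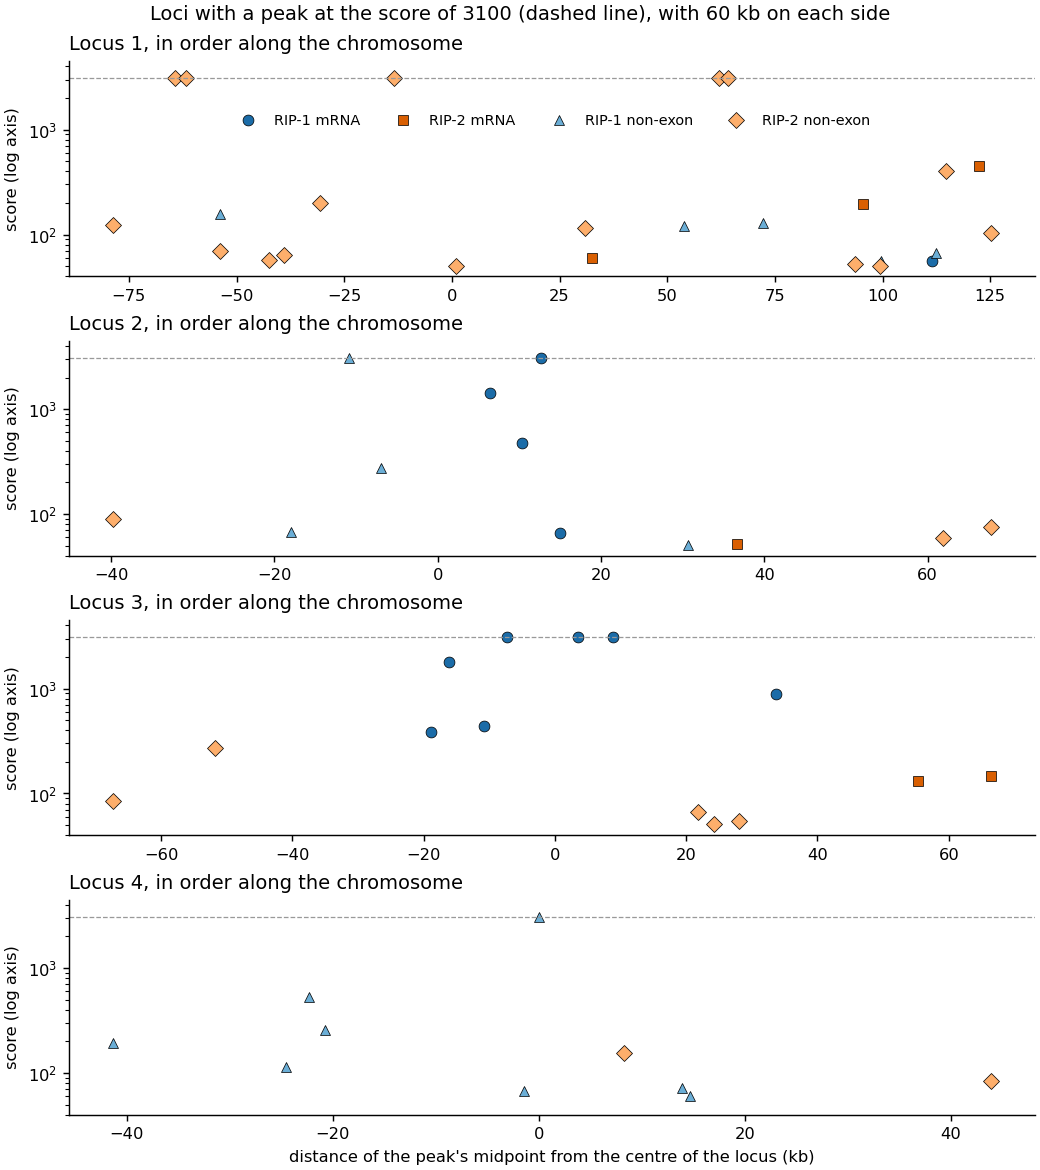
Score of every peak of the 4 lists, on a log axis, against its distance from the centre of each of the 4 loci that hold a peak at 3100, with 60 kb on each side. Locus 1 reaches 3100 in RIP-2 non-exon peaks and loci 2 to 4 in RIP-1 peaks, while the peaks of the other experiment in each locus reach at most 269 in loci 2 to 4 and 155 in locus 1.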

How the data were processed

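The submitters' processing notes name HISAT2 2.0.4, cutadapt 1.9.3 and the build hg19. Reads were paired, 150 bp long, per the labels' protocols. The authors deposited peak lists with names that carry the prefix MACS, called per experiment and not on pooled experiments. The sources used here give no caller version, settings or control library. The files have no header, so from values and column order the deposited score behaves as 10 times the negative log10 of a p-value. The deposited fold enrichment is a ratio over the control, and the deposited FDR is in percent. Non-exon starts count from 1, and mRNA-list positions, whose base is unknown, are printed as deposited.

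Here, Python 3.11.15, numpy 2.4.6 and scipy 1.17.1 placed peaks by midpoint. Chromosome lengths other than that of chromosome 17 were taken from the last peak end. Intervals are Wilson for shares, exact Poisson for densities and exact binomial for density ratios, at 95%. Moves wrapped at the chromosome's ends in a fixed grid and give no p. The overlap functions were tested on simulated data. Peaks named are the 10 mRNA-list peaks found by both experiments whose weaker score was highest, the 5 strongest unshared ones per experiment, the 5 non-exon peaks with the highest fold enrichment per experiment, and the 5 shared ones with the highest lower fold enrichment. Members and these rules were chosen with earlier results of these data known. The loci at 3100 and the stretches compared between the experiments were chosen after their values were seen. Gene lists were not analysed, since no hg19 annotation was used here.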

Additional observations from a re-analysis of the deposited data

How the results depend on the processing

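Of 66 alternative values, 55 stayed within the interval of the value reported or, for counts and medians, within 1.5 times it, among them all density ratios of ends over middle. For the window correlations the interval is Fisher's over 41 windows, which is wide, so a correlation inside it can still have moved: rho between the RIP-2 lists, 0.09 in the report, was 0.18 in windows of 1 Mb, 0.24 in windows of 4 Mb and -0.04 without 22 to 26 Mb, and rho between the RIP-1 mRNA and RIP-2 non-exon lists was 0.14, against 0.15, 0.08 and 0.00056. The other 11 concern sharing between RIP-1 and RIP-2. The factor of the mRNA lists over moved lists was 186 with an overlap of 50% or more of each peak, 49.2 with RIP-1 midpoints inside RIP-2 peaks, 10.99 with moves of 1 to 10 kb and 9.09 in the upper 50% by score, where 4 peaks were shared. The factor of the non-exon lists was 5.80, 3.98 and 1.62 under the first 3 of these, and 2.42 after cutting RIP-2 to its strongest peaks, equal in number to RIP-1. That setting left 58 shared non-exon peaks and the upper 50% by score left 48, fewer by construction, while the cause of the moved factors was not tested. Though within its interval, the RIP-2 mRNA-list ratio of ends over middle crossed 1 with the long-arm end alone (0.947), and with the upper 50% by score its interval no longer included 1 (1.42, 1.03 to 1.95). Leaving out 22 to 26 Mb, where peaks are sparsest, was chosen after seeing the data, as were the midpoint and score settings and the list of equal length for the factors. No window was empty in all lists, so that planned setting was not run, and the gene-list setting was not run for want of an hg19 annotation. No paired analysis was possible because the lists hold no values per library, only 1 call for each experiment. Unknown depth limits every comparison of counts and scores between RIP-1 and RIP-2.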
